A study of Homo sapiens and Mus musculus with 21 samples.

Results

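Polycomb repressive complex 1 (PRC1) is represented here by 9 genes: the catalytic RING genes RING1 and RNF2, the PCGF genes BMI1 and PCGF2, the chromodomain genes CBX2, CBX6, CBX7 and CBX8, and the polyhomeotic gene PHC2. They were found by symbol among 60674 genes in each of the 2 human count tables, and by their title-case orthologs among 41214 genes in the mouse table. All 9 were present once in each table and passed the filter on low counts there.

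RNA was sequenced from mesothelioma cells, which come from a tumour of the pleural lining, in 21 libraries. The drug experiment held H2731 (labelled Bap1 mutated) and H2810 (labelled Bap1 wildtype), each given GSK126, an inhibitor of the histone methyltransferase EZH2, or the vehicle DMSO, with 2 libraries a group. The knockdown experiment held MSTO-211H and H2810, each carrying a BAP1 shRNA (shBAP1) or a random shRNA, again with 2 libraries a group. The mouse experiment held 3 BNC libraries (Bap1-/-;Nf2-/-;Cdkn2ab-/-) and 2 NC libraries (Nf2-/-;Cdkn2ab-/-), so that both groups lack Nf2 and Cdkn2ab. Each human line is 1 line, the knockdown is labelled with 1 hairpin name, and the sources used here do not give the drug dose, the treatment times or the Cre that made the mouse alleles. Nothing in the labels says that replicates came from separate cultures or animals, so p-values measure only the spread between these libraries.

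PRC1 places ubiquitin on histone H2A through RING1 or RNF2, which are alternative catalytic subunits, each paired with a PCGF protein. Canonical PRC1 carries a CBX protein, whose chromodomain can bind histone H3 that PRC2 has methylated through EZH2, and a PHC protein, which polymerises and helps compact chromatin. Variant PRC1 carries RYBP or YAF2 in place of CBX. BAP1 is the catalytic subunit of PR-DUB, which removes the same ubiquitin mark, and it is often lost in mesothelioma.

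Promoter sequences are shown for 3 members on which the results turn: BMI1 and CBX6, which rose with GSK126 in H2810, and RNF2, which fell with shBAP1 in both lines. RefSeq starts (GRCh38.p14) were matched by symbol for 7 of the 9 members, all but CBX2 and CBX8. Each stretch runs 5′ to 3′ on the gene's strand and ends where the gene begins in the GENCODE annotation: BMI1 start 1 at chr10:22320849-22321098 on the plus strand, CBX6 at chr22:38872250-38872466 on the minus strand, and RNF2 at chr1:185045308-185045525 on the plus strand. Capitals mark CACGTG, the E-box of MYC and MAX family proteins, and TTCCCGC, a core of E2F sites.
BMI1: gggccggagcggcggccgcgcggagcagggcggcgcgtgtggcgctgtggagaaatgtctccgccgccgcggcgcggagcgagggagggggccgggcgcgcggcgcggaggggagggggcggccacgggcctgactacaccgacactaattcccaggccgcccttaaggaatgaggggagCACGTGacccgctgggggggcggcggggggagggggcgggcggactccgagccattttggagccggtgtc
CBX6: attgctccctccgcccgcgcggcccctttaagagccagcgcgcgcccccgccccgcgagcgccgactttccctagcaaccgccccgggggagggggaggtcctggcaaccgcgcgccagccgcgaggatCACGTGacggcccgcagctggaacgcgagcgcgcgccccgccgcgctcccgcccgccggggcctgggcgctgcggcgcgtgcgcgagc
RNF2: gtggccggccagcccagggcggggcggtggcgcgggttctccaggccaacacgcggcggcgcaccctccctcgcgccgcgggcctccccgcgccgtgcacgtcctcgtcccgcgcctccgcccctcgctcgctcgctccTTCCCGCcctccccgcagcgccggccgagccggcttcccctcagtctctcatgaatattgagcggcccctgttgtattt
Both motifs were searched on both strands in the 250 bases before a start, and both were chosen after these sequences had been seen. CACGTG begins 70 bases before the first BMI1 start, 121 before that of CBX6 and 52 before the first PHC2 start. It was not found before the second BMI1 and PHC2 starts, or before RNF2, RING1, PCGF2 or CBX7. Of all 35116 starts in the table, 6.34% held it. TTCCCGC was found before RNF2 only, and it lies in 5.52% of all starts. The shares among starts with as many CpG dinucleotides were not counted. The 250 bases before the first BMI1 start and the CBX6 and RNF2 starts held 35, 45 and 34 CpG dinucleotides, against a median of 11 over all starts. The PCGF2 stretch held 1, but it lies at chr17:38746629-38746878, inside the gene as annotated (chr17:38733898-38749817). It therefore does not describe the bases before that gene. A match here describes letters, not a bound site.

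Library totals ran from 17927837 to 22927239 counts in the drug table, from 19707304 to 23217215 in the knockdown table and from 13693927 to 22916482 in the mouse table. Levels are CPM, each gene's count scaled to a common TMM-adjusted library total, and fold changes are on the log2 scale with an SE. A call means that edgeR's quasi-likelihood test gave an adjusted p (Benjamini-Hochberg, across every gene tested in the table) below 0.05. Groups are said to be apart, or not to overlap, where every library of a group lies on the same side of the other group. How many of all genes were apart in this way was not counted. Several uncalled changes were apart too, among them RING1 with GSK126 in H2810 and CBX6 with GSK126 in H2731. BAP1 checked the knockdown labels: it averaged 16.6 ± 1.64 CPM in shBAP1 and 101 ± 1.84 CPM in random-hairpin MSTO-211H libraries, and 16.9 ± 4.90 CPM in shBAP1 and 116 ± 1.54 CPM in random-hairpin H2810 libraries (SD, n = 2 each). In the drug table it stood at 69.7 ± 1.04 CPM in H2731 and 146 ± 2.85 CPM in H2810 with DMSO. The replicate libraries of H2810 in the knockdown table differed more from each other (chi-square per degree of freedom 16.3 with shBAP1, 16.5 with the random hairpin) than those of MSTO-211H (2.18 and 2.21). In the mouse the value reached 310 between BNC replicates 4 and 6 and was 129 between the NC replicates. Mesothelial markers (MSLN, CALB2, WT1 and 6 others) summed to 1180 to 1186 CPM with GSK126 and 1733 to 1901 CPM with DMSO in H2731, and to 195 to 196 CPM with GSK126 and 232 to 241 CPM with DMSO in H2810. Between 5 and 6 of the 9 exceeded 1 CPM in every human group, and UPK1B was at 0 in nearly all of them. The sums hide genes that went different ways with GSK126. Of the 7 mesothelial markers tested, 1 was called higher and 2 lower in H2731 (all genes: 13.8% and 10.9%). In H2810, 1 was called higher and 1 lower (all genes: 16.3% and 12.9%). Fibroblast markers (DCN, COL1A1 and 3 others) summed to 12 to 15.2 CPM in H2731 and 5413 to 6427 CPM in H2810 of the drug table, and leukocyte markers stayed under 5 CPM in every human library, with CD3E at 0. With these bulk libraries, fewer cells of a type and less RNA per cell cannot be told apart.

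With shBAP1, RNF2 fell and CBX6 rose in both lines, and with GSK126, BMI1 rose in both lines. CBX2 and CBX6 rose with GSK126 in H2810, and PHC2 fell with it in H2731. In H2731, GSK126 raised 2 members and lowered 2, where edgeR called 13.8% of 15999 genes higher and 10.9% lower. In H2810, GSK126 raised 3 members and lowered none, where 16.3% of genes were called higher and 12.9% lower. The members' median log2 fold change was 0.01 in H2731 and 0.10 in H2810, and the median of all genes was 0.00 in both. The response differed between the lines for 4 members, with a log2 fold change that was higher in H2731 for 1 (BMI1) and lower for 3 (CBX2, CBX6 and PHC2), where 8.08% and 6.66% of all genes were called in those directions. With shBAP1, 3 members rose and 2 fell in MSTO-211H, where edgeR called 21.7% of 15872 genes higher and 24.5% lower. In H2810, shBAP1 raised 1 member and lowered 2, where 22.5% of genes were called higher and 23.3% lower. The median log2 fold change of the members was 0.06 in MSTO-211H and -0.07 in H2810, against -0.02 and -0.03 over all genes. The shBAP1 response differed between the lines for 1 member, lower in MSTO-211H, where 11.2% of genes were called higher and 16.5% lower. The GSK126 comparisons of the 2 lines share no library, and neither do the shBAP1 comparisons, but each comparison between lines uses the vehicle or random-hairpin libraries of both. Marker sums moved with the treatments as well. With shBAP1 in MSTO-211H, mesothelial markers summed to 380 to 389 CPM, against 286 to 302 CPM with the random hairpin, and leukocyte markers to 3.03 to 3.13 CPM, against 0.627 to 0.670 CPM, with 2 of their 5 genes above 1 CPM. Fibroblast markers summed to 55.3 to 56.4 CPM with shBAP1 in MSTO-211H, against 87.1 to 101 CPM with the random hairpin, and 3 of their 5 genes were called lower. With shBAP1 in H2810, mesothelial markers summed to 86.5 to 87.2 CPM, against 58.9 to 64.0 CPM with the random hairpin, and fibroblast markers to 4133 to 4793 CPM, against 5846 to 6428 CPM. Of the 5 fibroblast markers tested there, 3 were called lower and 1 higher. Of the 6 mesothelial markers tested with shBAP1, 3 were called higher and 1 lower in MSTO-211H, and 2 higher and 0 lower in H2810. Endothelial markers summed to 19.3 to 19.6 CPM with GSK126 in H2810, against 11.2 to 11.5 CPM with DMSO, with CDH5 at 0. The part of these shifts in the members' values was not tested.

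Some counts rested on single libraries. The 4 calls with GSK126 in H2731 became 2 without H2731 DMSO replicate 1, H2731 GSK126 replicate 2 or either H2810 GSK126 replicate, and the genes called there, 3959 in all, became 2619 without that DMSO library and 2338 without that GSK126 library. The 3 calls with shBAP1 in H2810 became 1 without random-hairpin replicate 1 or shBAP1 replicate 1 of that line, and the 5 in MSTO-211H became 3 without its random-hairpin replicate 1 or its shBAP1 replicate 1.

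**Figure D1:**
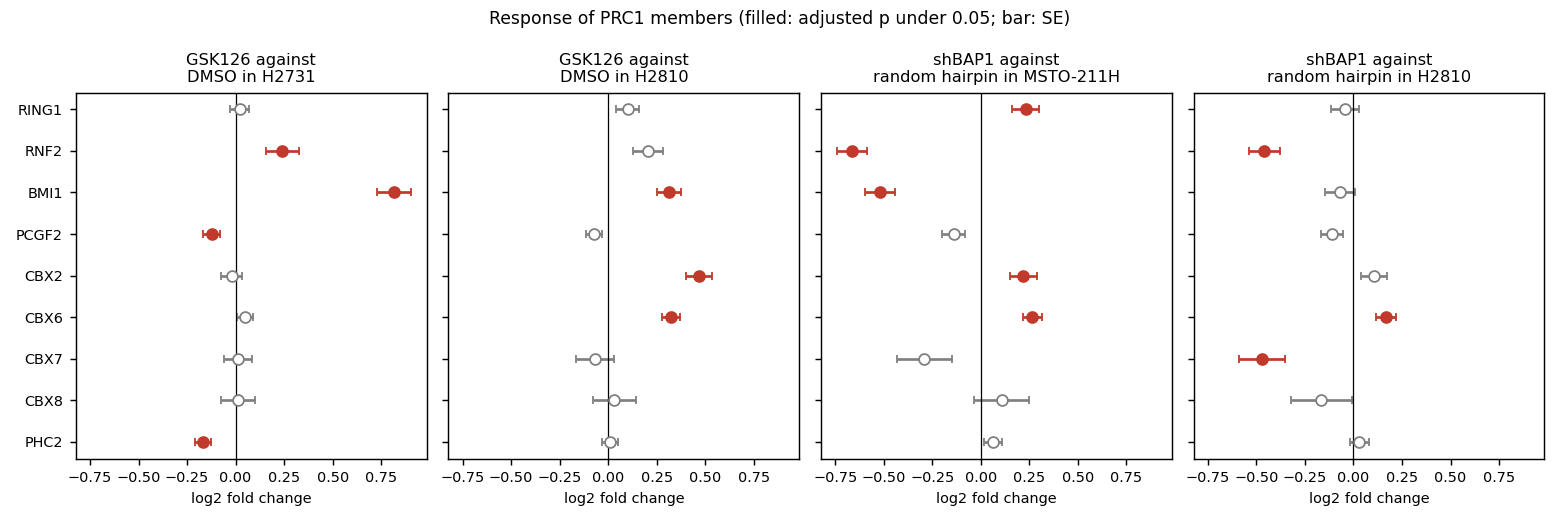
Log2 fold change (horizontal axis) of the 9 PRC1 genes with GSK126 against DMSO in H2731 and H2810 and with shBAP1 against the random hairpin in MSTO-211H and H2810; bars are SE and filled points have an adjusted p under 0.05. RNF2 lies left of 0 in both shBAP1 panels, at -0.66 and -0.46, and BMI1 lies right of 0 in both GSK126 panels, at 0.81 and 0.31.

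RNF2 encodes RING1B, a catalytic subunit of PRC1 that pairs with any PCGF protein. With shBAP1, RNF2 stood at 16 and 14.9 CPM in MSTO-211H, against 25.3 and 23.6 CPM with the random hairpin. In H2810 it stood at 15.0 and 14.5 CPM with shBAP1, against 21.2 and 19.4 CPM with the random hairpin. The groups did not overlap in either line, and the 4 shBAP1 libraries lay within a narrow band whatever the line. RNF2 fell by 0.66 ± 0.08 in MSTO-211H (adjusted p = 4.11e-05), to 0.632 of the level with the random hairpin. It fell by 0.46 ± 0.08 in H2810 (adjusted p = 6.93e-04), to 0.727 of that level. The difference between the 2 responses was -0.20 ± 0.11 and did not pass the test (adjusted p = 0.214). Both falls were called under all 15 alternatives, between -0.71 and -0.61 in MSTO-211H and between -0.48 and -0.39 in H2810.

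GSK126 moved RNF2 the other way by a smaller amount. In H2731 it stood at 15.8 and 17.4 CPM with GSK126, against 13.2 and 15.1 CPM with DMSO. The H2810 libraries held 22.0 and 22.6 CPM with GSK126, against 19.2 and 19.4 CPM with DMSO. The groups were separate in both lines, but in H2731 the nearest libraries of the treatments lay closer together than the replicates of either. RNF2 rose by 0.24 ± 0.09 in H2731 (adjusted p = 0.0465), whereas the difference of 0.21 ± 0.08 in H2810 did not pass (adjusted p = 0.0548). The H2731 rise did not pass with DESeq2 (adjusted p = 0.226), limma-voom (0.0525) or H2731 fitted alone (0.0572). In H2731 the call was lost without DMSO replicate 1 (0.14, adjusted p = 0.387), GSK126 replicate 2 (0.17, adjusted p = 0.334) or either H2810 GSK126 library (adjusted p = 0.0602 and 0.06). In H2810 the difference passed without H2731 DMSO replicate 1 or 2 (adjusted p = 0.0432 and 0.0374), without H2731 GSK126 replicate 2 (0.0471) or with H2810 fitted alone (0.0339). The response did not differ detectably between the lines (0.03 ± 0.12, adjusted p = 0.918).

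RING1 encodes the alternative catalytic subunit, RING1A. It stood at 37.6 and 34.4 CPM with shBAP1 in MSTO-211H, against 29.7 and 31.6 CPM with the random hairpin. In H2810 the values were 28.2 and 27.3 CPM with shBAP1 and 27.6 and 29.8 CPM with the random hairpin. The groups were apart in MSTO-211H and overlapped in H2810. RING1 rose by 0.23 ± 0.07 in MSTO-211H (adjusted p = 0.0172). That call was lost without random-hairpin replicate 1 (0.19, adjusted p = 0.126) or shBAP1 replicate 1 (0.17, adjusted p = 0.147). In H2810 the change was -0.04 and did not pass, and the difference between the lines was 0.28 ± 0.10 (adjusted p = 0.0602), which passed without H2810 random-hairpin replicate 1 (0.33, adjusted p = 0.0481). GSK126 left RING1 uncalled in both lines, at 0.02 in H2731 and 0.10 in H2810.

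Per kilobase of merged exon, RING1 was the higher of the pair in every human group, at 15.3 to 38 CPM per kb against 3.62 to 6.26 CPM per kb for RNF2. RNF2 made up 16.6 ± 0.23% of the length-normalised counts of the pair with shBAP1 in MSTO-211H and 27 ± 1.8% with the random hairpin (SD, n = 2 each). In H2810 its share was 19.8 ± 0.027% with shBAP1 and 24.8 ± 2.2% with the random hairpin. The pair thus tilted further towards RING1 in both knockdowns, and the shares of the groups did not overlap. With GSK126 its share was 10.1 ± 1.2% in H2731 against 8.81 ± 0.78% with DMSO, and 19.6 ± 0.029% in H2810 against 18.5 ± 0.4% with DMSO. Shares depend on the length used: with the longest transcript in place of merged exons, 24 of 50 shares in all sets moved by over 1 SD.

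**Figure D2:**
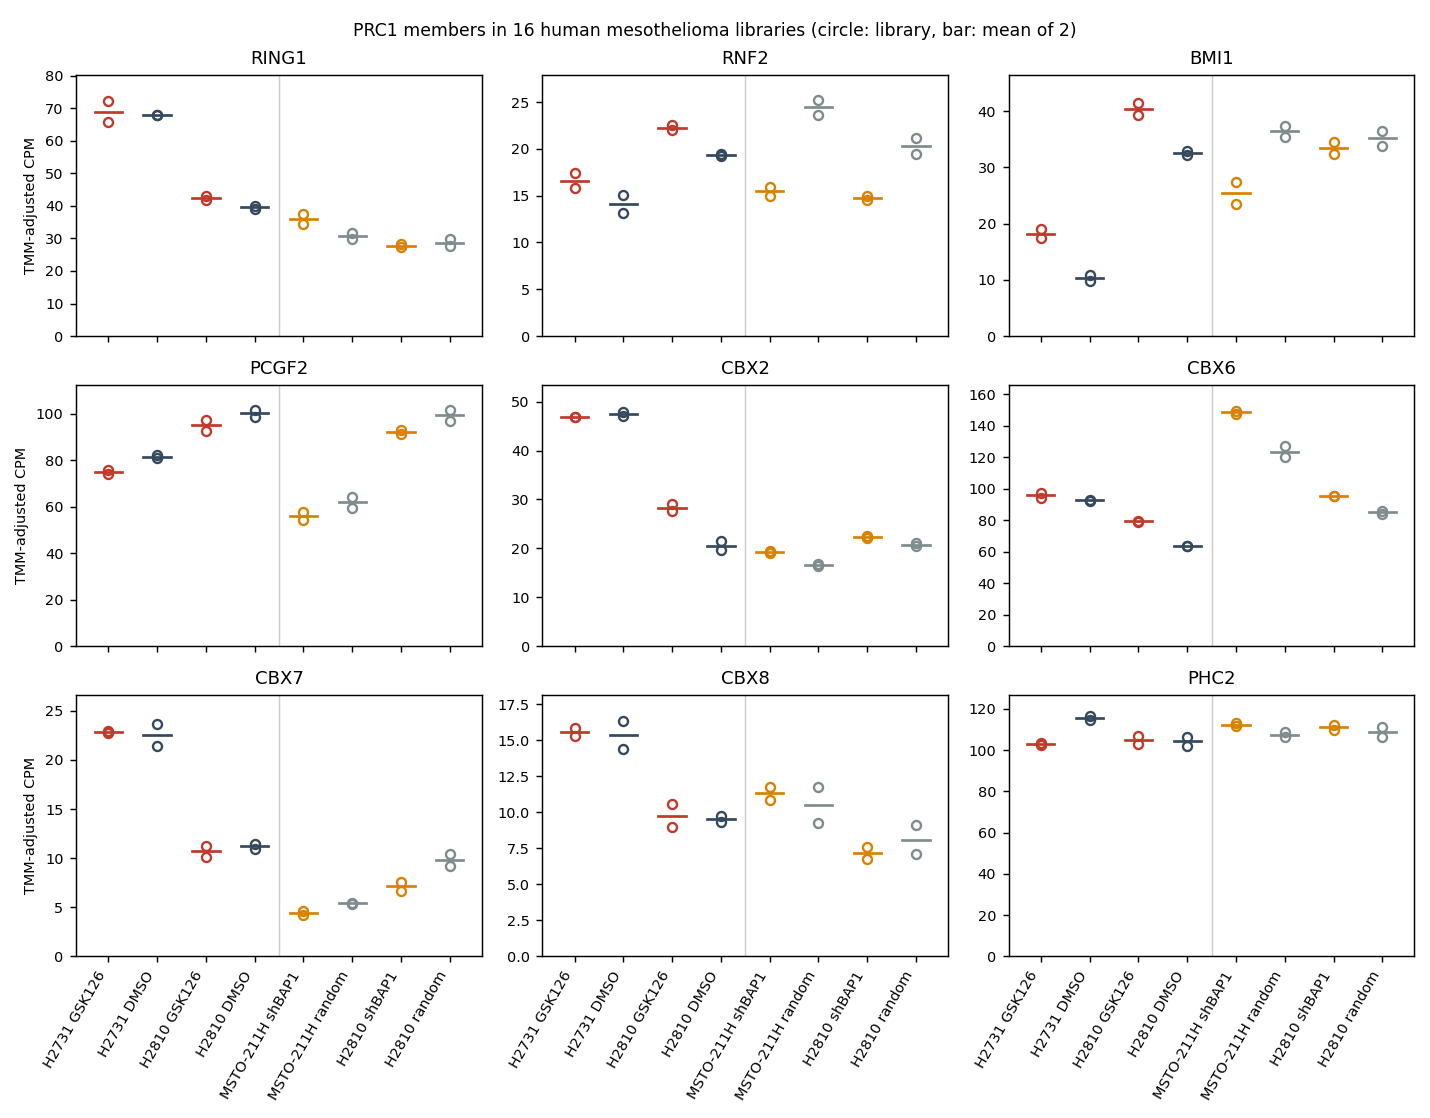
TMM-adjusted CPM (vertical axis, starting at 0) of the 9 genes in the 16 human libraries, circles for libraries and bars for the mean of 2; the grey line parts the drug groups on the left from the knockdown groups on the right, which were normalised separately. RNF2 is lower with shBAP1 than with the random hairpin in both lines, and BMI1 is lowest in H2731 with DMSO, at 11 and 9.72 CPM.

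BMI1 (PCGF4) encodes a core subunit of canonical PRC1 that represses the CDKN2A locus. It stood at 17.5 and 19.0 CPM with GSK126 in H2731, against 11 and 9.72 CPM with DMSO. BMI1 in H2810 stood at 41.5 and 39.4 CPM with GSK126, against 32.9 and 32.2 CPM with DMSO. Every GSK126 library was above every DMSO library of its line. BMI1 rose by 0.81 ± 0.09 in H2731 (1.76-fold, adjusted p = 8.20e-07) and by 0.31 ± 0.06 in H2810 (1.24-fold, adjusted p = 6.95e-04). The response was larger in H2731 by 0.50 ± 0.11 (adjusted p = 0.00274). These 3 calls held in all alternatives run, between 0.73 and 0.91 in H2731 and between 0.28 and 0.36 in H2810.

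BMI1 was also the member that differed most between H2731 and H2810 under DMSO, lower in H2731 with a log2 fold change of -1.65 ± 0.08 (adjusted p = 1.10e-13). Even with GSK126 it reached only 17.5 and 19.0 CPM in H2731, under the 32.9 and 32.2 CPM of H2810 with DMSO. With shBAP1 it stood at 27.4 and 23.5 CPM in MSTO-211H, against 35.5 and 37.3 CPM with the random hairpin. The H2810 values were 34.5 and 32.5 CPM with shBAP1, against 33.9 and 36.5 CPM with the random hairpin. The groups were apart in MSTO-211H and overlapped in H2810. BMI1 fell by 0.52 ± 0.08 in MSTO-211H (adjusted p = 2.72e-04), while the change of -0.07 in H2810 did not pass (adjusted p = 0.498). The difference between the lines was -0.45 ± 0.11 (adjusted p = 0.0109). Without MSTO-211H shBAP1 replicate 2 it was -0.35 and did not pass (adjusted p = 0.0543).

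The BMI1 gene (chr10:22321099-22331484, GRCh38) shares 1000 of its 4395 merged exon bases with the readthrough gene COMMD3-BMI1, which was listed with 0 counts in all 16 human libraries. The sources used here do not say how reads on shared bases were counted. COMMD3, its neighbour upstream, moved alongside it, at 2.73 and 2.73 CPM with GSK126 and 1.91 and 1.57 CPM with DMSO in H2731, and at 5.63 and 4.58 CPM with shBAP1 and 7.18 and 7.57 CPM with the random hairpin in MSTO-211H. The groups were apart in both pairs. The H2731 values rest on 56 and 58 counts with GSK126 and 44 and 31 counts with DMSO. In H2810, COMMD3 stood at 7.84 and 7.71 CPM with GSK126, against 7.54 and 6.83 CPM with DMSO. With shBAP1 in H2810 it stood at 7.26 and 7.78 CPM, against 7.51 and 7.63 CPM with the random hairpin. No test of COMMD3 is given here.

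PCGF2 (MEL18) encodes the PCGF protein closest to BMI1, which takes its place in canonical PRC1. It stood at 74.1 and 75.6 CPM with GSK126 in H2731, against 81.0 and 82.1 CPM with DMSO. In H2810 the values were 92.7 and 97.4 CPM with GSK126 and 101.5 and 98.7 CPM with DMSO. It was lower with GSK126 in every library of both lines. PCGF2 fell by 0.12 ± 0.04 in H2731 (adjusted p = 0.0482), whereas -0.07 in H2810 did not pass (adjusted p = 0.23). The call in H2731 was lost in 10 of 15 alternatives, among them the omission of any H2731 library (adjusted p from 0.103 to 0.209) or of either H2810 GSK126 library (adjusted p = 0.0677). With shBAP1 the changes of -0.14 in MSTO-211H (adjusted p = 0.0766) and -0.11 in H2810 (adjusted p = 0.137) did not pass. PCGF2 was lower in H2731 than in H2810 under DMSO (-0.30 ± 0.04, adjusted p = 3.30e-06), and lower in MSTO-211H than in H2810 with the random hairpin (-0.68 ± 0.06, adjusted p = 4.69e-07). In the annotation 61.5% of its merged exon bases are shared with CISD3 and an antisense gene on the opposite strand. CISD3 stood at 44.1 and 45.2 CPM with shBAP1 and 36.6 and 40.4 CPM with the random hairpin in MSTO-211H, and at 30.5 and 31.3 CPM with shBAP1 and 21.9 and 22.5 CPM with the random hairpin in H2810. Under DMSO, CISD3 stood at 40.4 and 41.9 CPM in H2731 and 28.3 and 25.9 CPM in H2810, so it was higher in H2731 where PCGF2 was lower. With GSK126 it stood at 39.3 and 40.2 CPM in H2731 and 27.2 and 26.4 CPM in H2810. Whether the counting used strand is not stated, so reads of the overlapping genes cannot be told apart.

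Among the 6 PCGF genes, PCGF2 took the largest share of length-normalised counts in every human group, from 31.2% to 42%. BMI1 took 6.08 ± 0.39% with GSK126 and 3.39 ± 0.37% with DMSO in H2731, and 13.5 ± 0.69% with GSK126 and 10.6 ± 0.04% with DMSO in H2810 (SD, n = 2 each). With shBAP1 it took 12.6 ± 1.1% in MSTO-211H, against 15.4 ± 0.41% with the random hairpin. The BMI1 share moved with its own level in each of these pairs, with no overlap between the groups.

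**Figure D3:**
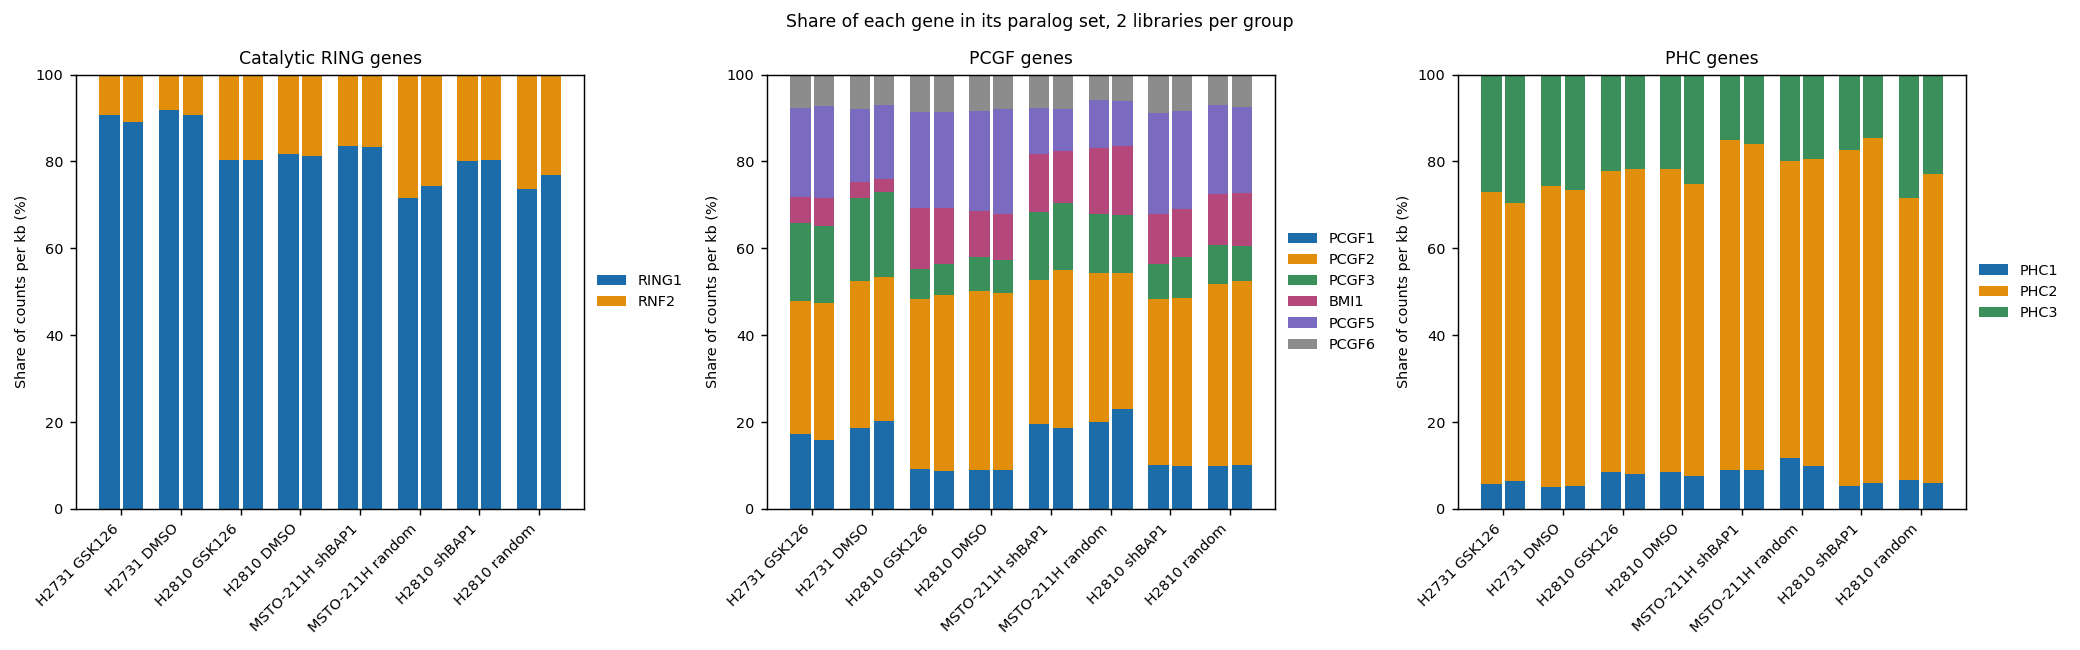
Share (vertical axis, percent) of each gene in the summed counts per kilobase of its paralog set, 1 bar per library and 2 libraries a group. RNF2 holds 16.6% of the RING pair with shBAP1 and 27% with the random hairpin in MSTO-211H, and BMI1 holds 6.08% of the PCGF genes with GSK126 and 3.39% with DMSO in H2731.

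CBX2 encodes a CBX protein that compacts nucleosomes. In H2731 it stood at 46.8 and 46.9 CPM with GSK126 and 47.1 and 47.9 CPM with DMSO. CBX2 in H2810 stood at 29.0 and 27.7 CPM with GSK126, against 21.5 and 19.6 CPM with DMSO. The 4 libraries of H2731 nearly coincided, and those of H2810 fell into 2 separate groups by treatment. CBX2 rose by 0.47 ± 0.07 in H2810 (1.38-fold, adjusted p = 2.52e-05), while -0.02 in H2731 did not pass. The response was smaller in H2731, with a difference of -0.49 ± 0.09 (adjusted p = 4.42e-04). Under DMSO, CBX2 was already 2.32-fold higher in H2731 than in H2810 (1.21 ± 0.06, adjusted p = 2.88e-13), and the H2810 libraries with GSK126 stayed below all H2731 libraries. With shBAP1 it stood at 19.0 and 19.6 CPM in MSTO-211H, against 16.8 and 16.4 CPM with the random hairpin, a rise of 0.22 ± 0.07 (adjusted p = 0.0223). Omitting any of the 4 MSTO-211H libraries ended that call (adjusted p = 0.0618 and 0.108 without random-hairpin replicates 1 and 2, 0.0573 and 0.113 without shBAP1 replicates 1 and 2). In H2810 the change with shBAP1 was 0.11 and did not pass (adjusted p = 0.21).

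CBX6 encodes a further chromodomain protein of canonical PRC1. Its level per kilobase was the highest of the 4 CBX members in every human group. It stood at 97.3 and 94.4 CPM with GSK126 in H2731, against 93.2 and 92.2 CPM with DMSO. In H2810 it stood at 79.6 and 79.1 CPM with GSK126, against 63.4 and 63.5 CPM with DMSO. The rise of 0.32 ± 0.04 in H2810 was called (1.25-fold, adjusted p = 1.40e-05), and 0.05 in H2731 was not. H2731 responded less, with a difference of -0.28 ± 0.06 (adjusted p = 0.00335). CBX2 and CBX6 thus shared a rise with GSK126 in H2810 that the test separated from their response in H2731. With shBAP1, CBX6 stood at 149.6 and 147.4 CPM in MSTO-211H, against 127.1 and 120.1 CPM with the random hairpin. In H2810 it stood at 95.6 and 95.3 CPM with shBAP1, against 84.0 and 86.1 CPM with the random hairpin. Every shBAP1 library was above every random-hairpin library of its line. CBX6 rose by 0.26 ± 0.05 in MSTO-211H (adjusted p = 9.54e-04) and by 0.17 ± 0.05 in H2810 (adjusted p = 0.0172). The call in H2810 was lost without random-hairpin replicate 1 (0.15, adjusted p = 0.0668) or shBAP1 replicate 1 (0.17, adjusted p = 0.0504).

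CBX7 encodes a CBX protein that also represses the CDKN2A locus. With shBAP1 it stood at 6.64 and 7.59 CPM in H2810, against 10.4 and 9.19 CPM with the random hairpin. In MSTO-211H it stood at 4.62 and 4.23 CPM with shBAP1, against 5.45 and 5.35 CPM with the random hairpin. It was lower with shBAP1 in both lines, with no overlap of the groups. CBX7 fell by 0.47 ± 0.12 in H2810 (adjusted p = 0.00736), while -0.29 ± 0.14 in MSTO-211H did not pass (adjusted p = 0.119). The difference between the lines was 0.18 ± 0.19 and did not pass either (adjusted p = 0.524). The call in H2810 was lost without its random-hairpin replicate 1 (-0.37, adjusted p = 0.0641) or its shBAP1 replicate 1 (-0.37, adjusted p = 0.0606), and with DESeq2 (adjusted p = 0.0723). With GSK126 it stood at 22.7 and 22.9 CPM in H2731, against 23.7 and 21.5 CPM with DMSO, and at 11.2 and 10.1 CPM in H2810, against 11.4 and 11 CPM with DMSO. GSK126 gave no call in either line. Between lines CBX7 was 2.02-fold higher in H2731 than in H2810 under DMSO (1.02 ± 0.08, adjusted p = 7.56e-10) and lower in MSTO-211H than in H2810 with the random hairpin (-0.86 ± 0.13, adjusted p = 5.40e-05). In the annotation 21.6% of its merged exon bases are shared with COX5BP7 and a further gene.

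CBX8 encodes a CBX protein of canonical PRC1 and lies beside CBX2 on chromosome 17. It stood at 15.9 and 15.3 CPM with GSK126 and 16.4 and 14.4 CPM with DMSO in H2731, and at 8.99 and 10.6 CPM with GSK126 and 9.36 and 9.76 CPM with DMSO in H2810. With shBAP1 it stood at 11.8 and 10.9 CPM in MSTO-211H, against 11.8 and 9.26 CPM with the random hairpin, and at 7.57 and 6.75 CPM in H2810, against 7.08 and 9.09 CPM with the random hairpin. Treated and control libraries overlapped in every pair, and none of the 4 changes passed (0.01, 0.03, 0.11 and -0.17).

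**Figure D4:**
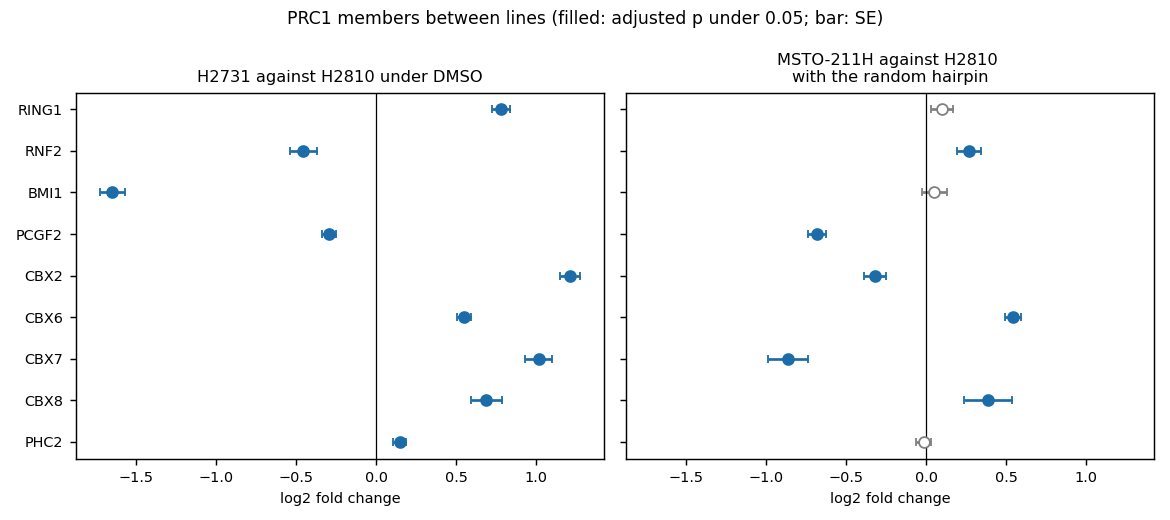
Log2 fold change (horizontal axis) of the 9 genes between lines, H2731 against H2810 under DMSO and MSTO-211H against H2810 with the random hairpin; bars are SE and filled points have an adjusted p under 0.05. CBX2 and CBX7 lie right of 0 in H2731, at 1.21 and 1.02, and left of 0 in MSTO-211H, at -0.32 and -0.86.

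Most genes tested were called between lines, and most members were as well. Under DMSO all 9 members differed between H2731 and H2810, 6 higher and 3 lower in H2731, where 41.5% of genes were called higher and 40.7% lower, and all 9 calls held in every alternative. The 4 CBX members were all higher in H2731, with CBX8 at 0.69 ± 0.10 (adjusted p = 2.61e-06) and CBX6 at 0.55 ± 0.04 (adjusted p = 4.01e-10). RING1 was higher in H2731 by 0.78 ± 0.05 (adjusted p = 5.35e-11) and RNF2 was lower (-0.46 ± 0.08, adjusted p = 5.31e-05). The members' median was 0.55 and that of all genes 0.01. With the random hairpin, 3 members were higher and 3 lower in MSTO-211H than in H2810, where 39% of genes were called higher and 40.7% lower. CBX6 (0.54 ± 0.05, adjusted p = 9.66e-07), RNF2 (0.27 ± 0.08, adjusted p = 0.00661) and CBX8 (0.39 ± 0.15, adjusted p = 0.0314) were higher in MSTO-211H, and CBX2 was lower (-0.32 ± 0.07, adjusted p = 9.85e-04) with PCGF2 and CBX7. RING1, BMI1 and PHC2 did not pass, at 0.10, 0.05 and -0.02. With DESeq2 the CBX8 difference did not pass either (adjusted p = 0.0692). The CBX8 call was lost without random-hairpin replicate 1 of H2810 (0.21, adjusted p = 0.255) or of MSTO-211H (0.21, adjusted p = 0.282), and that of RNF2 without random-hairpin replicate 1 of MSTO-211H (0.22, adjusted p = 0.0521). Marker sums differed between the lines, mesothelial markers summing to 1733 to 1901 CPM in H2731 and 232 to 241 CPM in H2810 under DMSO, and fibroblast markers to 13 to 15.2 CPM and 5592 to 6427 CPM in those groups. Of the 7 mesothelial markers tested, 4 were called higher and 3 lower in H2731, and all 4 fibroblast markers tested were called lower. The part of the markers in these differences was not tested. Each line is 1 sample of its BAP1 label, so line and BAP1 status cannot be told apart.

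PHC2 encodes the polyhomeotic subunit that joins PRC1 complexes through its SAM domain. It stood at 103.4 and 102.3 CPM with GSK126 in H2731, against 114.5 and 116.8 CPM with DMSO. In H2810 it stood at 103.2 and 106.7 CPM with GSK126 and 102.1 and 106.5 CPM with DMSO. The groups were apart in H2731 and overlapped in H2810. PHC2 fell by 0.17 ± 0.04 in H2731 (adjusted p = 0.00476), in all alternatives run, and 0.01 in H2810 did not pass. The difference between the lines was -0.18 ± 0.06 (adjusted p = 0.0496), and it was lost in 10 alternatives, among them the omission of any drug library except H2810 DMSO replicate 2 (adjusted p from 0.0617 to 0.195). With shBAP1 the values were 113.2 and 111.6 CPM in MSTO-211H, against 106.5 and 108.7 CPM with the random hairpin, and 112.2 and 109.9 CPM in H2810, against 106.6 and 111.0 CPM with the random hairpin. Neither change passed (0.06 and 0.03). PHC2 nevertheless took a larger share of the PHC set with shBAP1, 75.4 ± 0.66% against 69.5 ± 1.4% with the random hairpin in MSTO-211H and 78.4 ± 1.4% against 67.9 ± 4.4% in H2810, beside a fall of PHC3 by 0.87 ± 0.12 in H2810 (adjusted p = 1.19e-04). PHC3 averaged 69.1 ± 10.2 CPM with shBAP1 and 126 ± 23.8 CPM with the random hairpin there (SD, n = 2 each).

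Set in order by level per kilobase in the vehicle group of H2731, RING1 came first (37.4 ± 0.056 CPM per kb), followed by PCGF2 (23.2 ± 0.23), PHC2 (20.8 ± 0.29), CBX6 (11.6 ± 0.086), CBX2 (8.38 ± 0.099), CBX8 (3.73 ± 0.33), RNF2 (3.62 ± 0.35), CBX7 (3.02 ± 0.21) and BMI1 (2.35 ± 0.20; SD, n = 2 each). CBX8 and RNF2 lay within their spread, as their SDs exceeded the gap, and all other neighbours were further apart than their SDs. In H2810 with DMSO the order was PCGF2 (28.5 ± 0.56), RING1 (21.8 ± 0.38), PHC2 (18.8 ± 0.57), CBX6 (7.94 ± 0.010), BMI1 (7.41 ± 0.13), RNF2 (4.94 ± 0.043), CBX2 (3.62 ± 0.23), CBX8 (2.32 ± 0.068) and CBX7 (1.5 ± 0.041). By merged exon length, BMI1 was thus last of the 9 in H2731 and in the middle in H2810, whereas PHC2 kept the third place. These orders, and the gaps between neighbours, depend on the length used. Merged exons span 7467 bases in CBX7, 5550 in PHC2 and 1813 in RING1. The longest transcripts span 4111, 4255 and 1741 bases. Orders by the longest transcript were not compared.

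Outside the members, 19 further genes of canonical and variant PRC1 were measured, and all passed the filter. GSK126 raised 2 and lowered 2 of them in H2731, where 13.8% of all genes were called higher and 10.9% lower. There AUTS2, a partner of PCGF3 and PCGF5 complexes, rose by 0.53 ± 0.06 (adjusted p = 1.79e-06). PCGF5 rose by 0.29 ± 0.04 (adjusted p = 3.44e-05) and PCGF1 fell (-0.26 ± 0.08, adjusted p = 0.0179). With DESeq2 the PCGF1 fall did not pass (adjusted p = 0.171). The PCGF1 call was lost without DMSO replicate 2 (adjusted p = 0.167) or GSK126 replicate 2 (adjusted p = 0.185). In H2810 GSK126 raised 2 and lowered 2, where 16.3% of all genes were called higher and 12.9% lower. RYBP (0.22 ± 0.06, adjusted p = 0.00545) and BCOR (0.17 ± 0.06, adjusted p = 0.0355) rose. PCGF3 (-0.19 ± 0.06, adjusted p = 0.0182) and PCGF5 (-0.13 ± 0.04, adjusted p = 0.0242) fell. With DESeq2, RYBP, BCOR, PCGF3 and PCGF5 all failed to pass in H2810 (adjusted p = 0.0533, 0.159, 0.0934 and 0.13). In H2810 the BCOR call was lost without DMSO replicate 1 or either GSK126 library (adjusted p = 0.0587 to 0.231), the PCGF5 call without DMSO replicate 2 or either GSK126 library (0.0934 to 0.186), and the PCGF3 call without DMSO replicate 1 or GSK126 replicate 1 (0.0936 and 0.191). With shBAP1, 3 rose and 7 fell in MSTO-211H, where 21.7% of all genes were called higher and 24.5% lower. In H2810, 4 rose and 4 fell with shBAP1, where 22.5% of all genes were called higher and 23.3% lower. SCML2, a SAM-domain partner of PRC1, was the called gene of the 19 with the smallest p in both lines, at 8.41 ± 0.064 CPM with shBAP1 and 14.5 ± 1.03 CPM with the random hairpin in MSTO-211H (-0.78 ± 0.10, adjusted p = 8.06e-05), and at 3.94 ± 0.35 CPM with shBAP1 and 8.22 ± 0.21 CPM with the random hairpin in H2810 (-1.06 ± 0.12, adjusted p = 4.16e-05; SD, n = 2 each). In MSTO-211H, SCMH1 (-0.42 ± 0.06) and RYBP (-0.31 ± 0.06) also fell, and E2F6 (0.49 ± 0.07) and MAX (0.28 ± 0.05) rose. The median log2 fold change of the 19 was 0.04 with GSK126 in H2731 and 0.03 in H2810, and 0.00 with shBAP1 in MSTO-211H, where AUTS2 had 0 counts in every library, and 0.04 in H2810. Between lines, 8 were higher and 8 lower in H2731 than in H2810 under DMSO, with AUTS2 at 4.41 ± 0.13. Of all genes, 41.5% were called higher and 40.7% lower there. With the random hairpin, 8 were higher and 8 lower in MSTO-211H than in H2810, with USP7 at 1.34 ± 0.06. Of all genes, 39% were called higher and 40.7% lower in that comparison.

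In the mouse cells none of the 9 orthologs was called in BNC against NC, and neither was any other gene of 12225 tested (0% higher and 0% lower by edgeR). At an unadjusted p under 0.05 there were 823 genes, 2 of them members, while DESeq2 called 302 genes and no member, and limma-voom called none. Pcgf2 stood at 38.1, 37.8 and 31.0 CPM in BNC libraries, against 22.6 and 21.3 CPM in NC libraries, and the groups did not overlap (0.70 ± 0.21, unadjusted p = 0.0193, adjusted p = 0.62). Cbx7 stood at 0.897, 0.648 and 0.746 CPM in BNC libraries, which rest on 18, 13 and 17 counts, against 8.25 and 1.82 CPM in NC libraries (-2.71 ± 0.75, unadjusted p = 0.0151, adjusted p = 0.589). Both NC libraries were above all BNC libraries, but they lay further from each other than the lower one lay from BNC. Rnf2 stood at 63.8, 54.1 and 56.1 CPM in BNC libraries and 71.3 and 49.9 CPM in NC libraries, which overlap (-0.06 ± 0.23). Bmi1 ran from 84.2 to 138 CPM in BNC and from 75.6 to 149.8 CPM in NC libraries, and Cbx6 from 95.0 to 158 CPM in BNC and from 62.6 to 158 CPM in NC libraries. Ring1 and Cbx8 were each highest in BNC replicate 6, at 27.2 and 18.0 CPM, against 9.97 to 12.8 CPM and 6.33 to 6.78 CPM in the other BNC libraries and 14.5 to 15.4 CPM and 8.48 to 9.70 CPM in NC libraries. Cbx2 ran from 19.7 to 29.9 CPM in BNC and from 14.4 to 41.9 CPM in NC libraries, and Phc2 from 118 to 161 CPM in BNC and from 157 to 202 CPM in NC libraries. The members' median was 0.01 and that of all genes 0.03. Bap1 itself was at 30.5, 33.3 and 44.1 CPM in BNC libraries and 60.2 and 62.0 CPM in NC libraries, though a gene total does not show which exons are deleted. Mesothelial markers summed to 133 to 936 CPM in BNC and 975 to 2141 CPM in NC libraries, and 2 of the 9 exceeded 1 CPM in every BNC library, against 8 in every NC library. Fibroblast markers summed to 437 to 5740 CPM in BNC and 1863 to 4329 CPM in NC libraries. The part of these markers in the members' values was not tested.

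**Figure D5:**
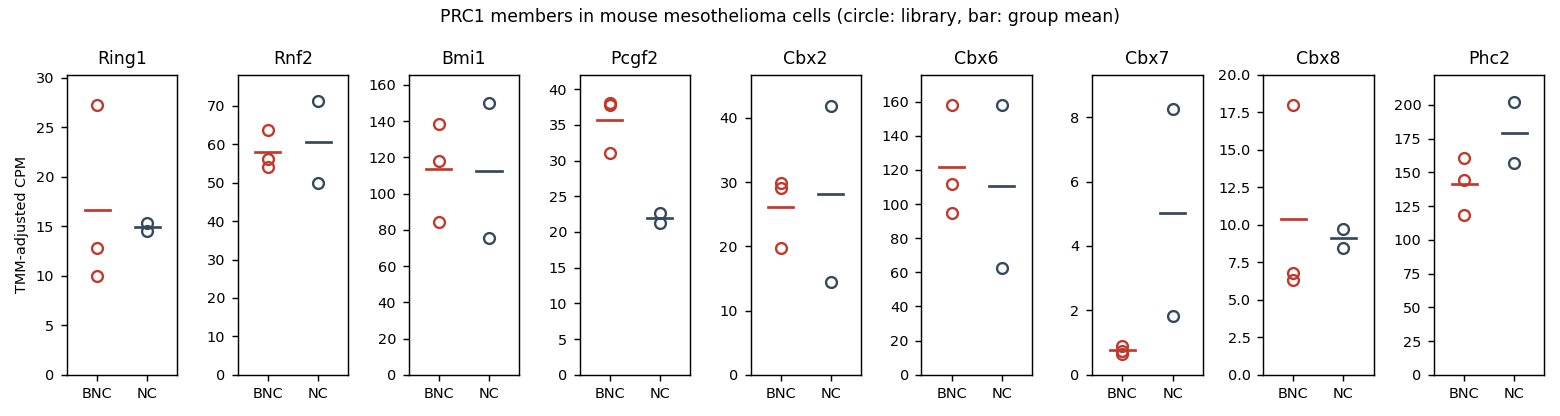
TMM-adjusted CPM (vertical axis, starting at 0) of the 9 orthologs in mouse mesothelioma cells, circles for libraries and bars for the group mean, 3 BNC libraries left of 2 NC libraries. Pcgf2 is higher and Cbx7 lower in every BNC library than in both NC libraries, though neither passed the test, and the groups overlap for the other members. How many of all genes separate in this way was not counted.

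The mouse balance of paralogs differed from the human one in the RING and PCGF sets, but not in the PHC set. Rnf2 made up 74 ± 11% of the RING pair in BNC (SD, n = 3) and 75.7 ± 5.4% in NC libraries (SD, n = 2), where RNF2 stayed at 8.81% to 27% in the human groups. Bmi1 made up 46.5 ± 3.1% of the PCGF set in BNC and 45.5 ± 5.8% in NC libraries, where BMI1 stayed at 3.39% to 15.4% in the human groups. Phc2 made up 70.2 ± 6.2% of the PHC set in BNC and 68.7 ± 12% in NC libraries, and PHC2 ran from 65.7% to 78.4% in the human groups. The species were counted in separate tables with different annotations, so these shares are set side by side with no test.

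Among 14978 genes that passed the filter in both human tables, likeness to each member was measured by Pearson's r of log2 CPM over the 16 human libraries, centred within each table. These points share lines and treatments, so the values describe the line differences as much as the treatments, and no p is given. RNF2 was most like LZTFL1 (r = 0.980) and CFL2 (0.952), BMI1 most like IRF2BP2 (0.987) and its neighbour COMMD3 (0.981), PCGF2 most like MAPK7 (0.991), and RING1 most like SENP1 (0.982). CBX2 was most like ABHD12 (0.979), CBX6 most like SLC1A3 (0.980), CBX7 most like H2AZ2 (0.979) and CBX8 most like AL161891.1 (0.965). PHC2 reached 0.787 with DLX1.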

How the data were processed

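RNA-seq counts per gene were analysed in 21 libraries. Per the labels' protocols, poly-A TruSeq libraries were sequenced as single-end reads, and per the submitters' processing notes TopHat2 2.0.12, TopHat, HTSeq and DESeq2 were used and mm10 and GRCm38 named. The human build, the annotation and the strand setting are not given in the sources used here. Of 60674 human genes, 60418 were found by ID in GENCODE v44 (GRCh38), and 99.9967% of these overlapped it. The authors deposited raw counts per gene, without normalization. A line of the knockdown table naming no gene held 0 counts and was left out.

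The members, the list of 19 other PRC1 genes, the marker lists and the tests were chosen with earlier results of these data known. For each table, 1 model over all groups was fitted with edgeR 4.0.16 (R 4.3.3): filterByExpr, TMM factors, quasi-likelihood F tests and Benjamini-Hochberg adjustment. The fits kept 15999 genes in the drug table, 15872 in the knockdown table and 12225 in the mouse table. The SE is the log2 fold change divided by the square root of F. The named genes were the 9 members, BAP1, up to 5 called genes of the list with the smallest p in each comparison, not all of which are printed, and the 3 genes most like each member. Shares used counts per 1000 bases of merged exon. Of the lists, 1 PRC1 gene, 1 marker and the shares that need that gene are not reported here. The scripts were tested on simulated data. No replicate libraries were identical. Alternatives were RLE factors, no filter, a filter of 50 counts in 2 libraries, DESeq2 1.42.0, limma-voom (3.58.1), the 2 compared groups alone, a replicate block and each library left out.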

Additional observations from a re-analysis of the deposited data

Results flagged for a closer look

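The response to GSK126 differed between H2731 and H2810 by an interaction test (difference of log2 fold changes, H2731 minus H2810) for 4 members: BMI1 by 0.50, CBX2 by -0.49, CBX6 by -0.28 and PHC2 by -0.18. The same test passed for 2 of the 19 other PRC1 genes, PCGF5 (0.41) and SCMH1 (0.30). Of all genes, 8.08% were called higher and 6.66% lower in this difference. The PHC2 difference lost its call in 10 of 14 alternatives. DESeq2 called neither the PHC2 nor the SCMH1 difference (adjusted p = 0.226 and 0.123). The response to shBAP1 differed between MSTO-211H and H2810 (MSTO-211H minus H2810) for BMI1, by -0.45, and for 5 other PRC1 genes, PCGF5 (-0.49), BCOR (0.52), E2F6 (0.39), SCMH1 (-0.28) and L3MBTL2 (-0.30). Of all genes, 11.2% were called higher and 16.5% lower in that difference, so these counts do not set PRC1 genes apart. The BMI1 difference lost its call without MSTO-211H shBAP1 replicate 2, where it was -0.35. DESeq2 did not call the E2F6, SCMH1 and L3MBTL2 differences (adjusted p = 0.0896, 0.153 and 0.202). The L3MBTL2 difference lost its call without replicate 2 of either H2810 group or any 1 of the 4 MSTO-211H libraries (adjusted p = 0.0785 to 0.123). The E2F6 difference lost it without random-hairpin replicate 1 of either line or MSTO-211H shBAP1 replicate 1 (0.0550 to 0.0665), and the SCMH1 difference without shBAP1 replicate 1 of H2810, random-hairpin replicate 2 of MSTO-211H or either MSTO-211H shBAP1 library (0.0552 to 0.0947). With GSK126 the SCMH1 difference lost it without replicate 2 of any of the 4 groups or H2810 GSK126 replicate 1 (0.0640 to 0.140).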

How the results depend on the processing

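Over the members, 35 fold changes were called, and of their 520 alternative values 475 kept the call, 45 lost it and 0 changed sign; 25 of the 35 kept it in every alternative. The other 46 fold changes had 640 alternative values, of which 7 passed the threshold, all for RNF2 with GSK126 in H2810 or RING1 in the difference of shBAP1 responses. DESeq2 called 302 genes in BNC against NC, 2783 with GSK126 in H2810, 2123 in H2731 and 1401 in the difference of the 2, against 0, 4681, 3959 and 2358 with edgeR. With GSK126 in H2731, 4 members were called, and 2 with DESeq2 or with H2731 fitted alone. In the difference of shBAP1 responses, 1 member was called, and 2 with a filter of at least 50 counts. Leaving out 1 library gave 2 to 4 members and 2338 to 4280 genes with GSK126 in H2731, 1 to 3 members with shBAP1 in H2810, 3 to 5 in MSTO-211H, and 0 to 2 in the difference of the shBAP1 responses (0 without MSTO-211H shBAP1 replicate 2, 2 without H2810 random-hairpin replicate 1). The causes were not tested.

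Libraries with the same number in compared human groups had residuals that correlated from 0.0859 to 0.532. With at most 2 pairs in a comparison, replicate numbers were not treated as pairs. With the replicate number as a block, BNC against NC had 1 gene called, against 0, and RNF2 with GSK126 in H2810 passed (0.21, adjusted p = 0.0354); no other member changed its call. Share values moved by over 1 SD in 24 of 50 cases with the longest transcript as the length and in 43 of 50 with no length. Depth limits mouse Cbx7 most (13 to 114 counts a library), then CBX7 in the knockdown table (96 to 243), mouse Cbx8 (127 to 409) and CBX8 (137 to 376 over both human tables).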
